A study of Mus musculus with 12 samples.

Results

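Long intergenic noncoding RNAs (lincRNAs) expressed in the liver of male mice were compared between VDD-F1 offspring, whose dams were fed a vitamin D deficient diet, and VDS-F1 offspring, whose dams were fed a vitamin D sufficient diet. They were chosen by annotation and level: a gene had to be annotated as a lincRNA in GENCODE M21, lie on an autosome and have a mean reverse-strand count of at least 30 over the 12 libraries. Of 4364 autosomal lincRNA genes in the files, 1202 had at least 1 count and 63 met the rule, among 52636 annotated genes in all. The rule set aside 9 genes by name (Malat1, Neat1, H19, Meg3, Rian, Mirg, Peg13, Gm26917 and Gm42418), 5 of which had a mean count of at least 30. The lincRNAs just below the limit were Gm44421 at a mean count of 29.9, 1700096K18Rik at 29.1 and 4930480K23Rik at 28.0, and those just above it were Gm15611 at 30.25, Snhg12 at 33.8 and Gm12718 at 34.0. Because the mean over all mice chose the genes, their levels are given as a description. A mean of at least 30 was reached in both diet groups by 59 of the 63 lincRNAs, in VDD-F1 mice alone by 4 and in VDS-F1 mice alone by 0. The 4 were Gm19619 (mean counts of 68.7 and 28 in the VDD-F1 and the VDS-F1 group), Gm30097 (68.3 and 13.7), Gm15611 (35.8 and 24.7) and Gm12718 (38.3 and 29.7).

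All 12 animals were C57Bl/6J males of 16 weeks, 6 per diet group, with 1 liver library each. The dams of both groups were mated to males on the control diet and received the sufficient diet after delivery. All offspring received the sufficient diet from weaning. The deficient dams alone also received calcium gluconate, which therefore cannot be told apart from the lack of vitamin D in this design, and the sources used here do not tie the mice to litters.

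LincRNAs are transcripts of RNA polymerase II that lie between protein-coding genes and hold no long conserved reading frame. Many are spliced and polyadenylated like messenger RNAs, but they are usually less abundant and vary more between tissues. Some act on neighbouring genes, some bind proteins or microRNAs, some are hosts whose introns release small nucleolar RNAs (snoRNAs), and for most no function is known. In the liver, RNAs of this class are known near genes of lipid and plasma protein production and near genes of liver transcription factors.

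Each library held between 25897868 and 36403413 fragments, of which 14275793 to 20815066 were counted on the reverse strand of genes. The 63 lincRNAs together took 0.0565% to 0.0789% of these counts. In VDS6, 11.1% of the fragments lay outside genes, against 2.52% to 4.94% in the other 11 libraries. The 8 hepatocyte markers (Alb, Ttr, Apoa1 and others) summed to between 92323 and 119128 CPM (counts scaled to a common library size, TMM-adjusted) in every library, as the label liver implies, and 0 of them were at 0. A liver weight is recorded in the supplement for 7 of the mice, VDD4 to VDD6 with VDS3 to VDS6, and not for VDD1 to VDD3, VDS1 and VDS2. The mice of that supplementary figure, which labels the VDS mice VSD, were matched to the libraries by group and number alone. The split by recorded weight was used as a possible batch, and what it stands for is not given in the sources used here. In bulk liver, fewer cells of a type and less RNA per cell cannot be told apart. Below, means are given ± SD over the 6 mice of a diet group and log2-fold changes (VDD-F1 over VDS-F1) ± the standard error, and an adjusted p-value is from edgeR where no other tool is named.

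The 63 genes lay on 18 chromosomes, and 51 of them had a provisional symbol of the Gm or Rik kind. Their merged exons covered a median of 1811 bases, from 384 bases in Gm10076 to 16543 bases in Gm37494, and 5 of them had a single exon. The longest transcript of each lincRNA had a longest ATG-started reading frame of 74 codons in the median, against 418 codons in 11817 expressed protein-coding genes. A frame of over 100 codons was present in 11 lincRNAs (17.5%) and in 94.0% of the protein-coding genes. The longest frames were 918 codons in Gm37494 and 393 codons in Gm42047. A frame in the sequence says nothing about translation, which was not measured.

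A promoter window of 300 bases (250 before and 50 after the start site) was found by symbol in the RefSeq table on GRCm38.p6 for 43 of the 63 lincRNAs. The observed number of CpG dinucleotides over the number expected from base composition had a median of 0.468 in these windows and of 0.767 in the windows of 9351 expressed protein-coding genes. It was above 0.6 in 16 lincRNAs (37.2%), in 72.2% of the protein-coding genes and in 35.8% of all 32851 windows in the table. The TATA box, searched as TATAAA on the strand of the gene, was present in 2 lincRNA windows (4.65%), BC049987 and 9030616G12Rik, and in 4.43% of the protein-coding and 8.32% of all windows. TTCNNNGAA, the core bound by Stat5, the factor of growth hormone signalling, was found on either strand in 4 lincRNA windows (9.30%), against 6.84% and 8.30%. CAAAGTCCA, a form bound by the hepatocyte factor Hnf4a, was found on either strand in 1 lincRNA window (2.33%), that of Gm32063, against 0.524% and 0.475%. The repeat of AGGTCA with 3 bases between, the form bound by the vitamin D receptor, was present on either strand in 0 lincRNA and 0 protein-coding windows and in 2 windows of the whole table (0.00609%). The RefSeq start lay 27056 bases from the annotated gene start in 4732465J04Rik, 5242 in AW112010, 3475 in Gm35696 and 2014 in Lncpint. All 43 windows entered the shares above. A match or its absence in 300 bases is a property of the letters and says nothing about binding.

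Per kb of exons, the highest mean level was that of Gm10076, a single-exon gene, with 60.3 CPM per kb. It was followed by Tmem250-ps (37.6 CPM per kb), 1810008I18Rik (26.55), AW112010 (25.1) and 2900097C17Rik (21.6). AW112010 is an interferon-induced RNA of immune cells, and 2900097C17Rik is the mouse form of Norad, which binds Pumilio proteins in the cytoplasm. The next in order were 1810058I24Rik (14.1 CPM per kb), Gm48633 (14.1), Gm27216 (13.0), Gm8883 (9.56) and 9030616G12Rik (9.22). Gm10076 ranged from 18.9 to 32.5 CPM in VDD-F1 (median 21.2) and from 18.1 to 34.1 CPM in VDS-F1 mice (median 20.5). 1810008I18Rik ranged from 39.35 to 103 CPM in VDD-F1 and from 39.9 to 131 CPM in VDS-F1 mice. On the scale per kb this range covered those of Tmem250-ps, AW112010 and 2900097C17Rik. Ranges over the mice did not overlap between Gm10076 and Tmem250-ps or between 2900097C17Rik and 1810058I24Rik. They overlapped for every other pair of neighbours in the order, whose ranks were therefore not resolved beyond the spread between mice.

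**Figure D1:**
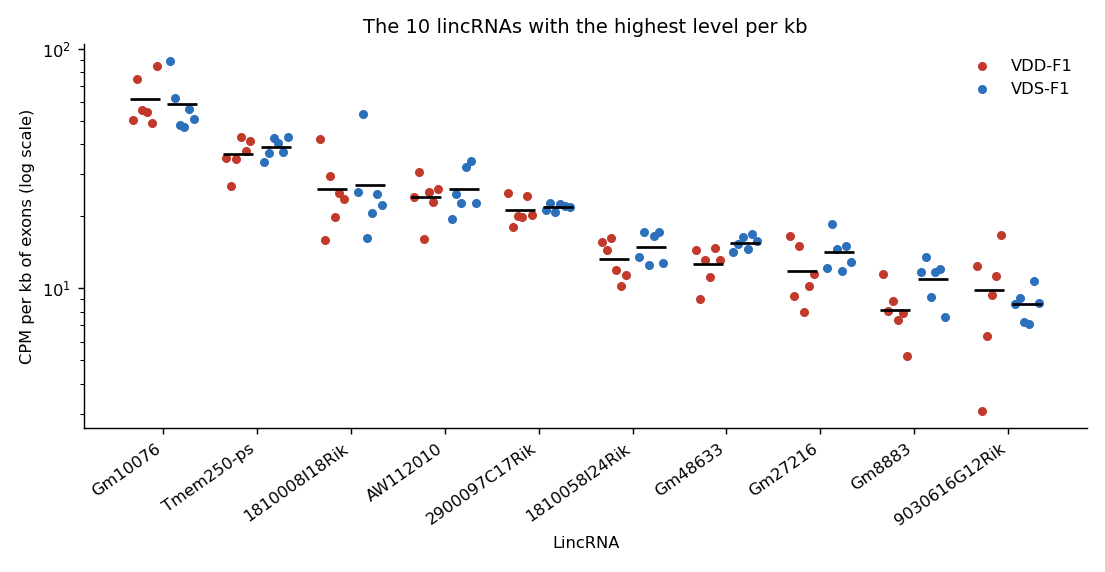
Level of the 10 lincRNAs with the highest mean, as CPM per kb of merged exons on a log axis, with 1 point per mouse (6 VDD-F1 in red, 6 VDS-F1 in blue) and a line at each group mean. The points of the 2 groups overlap for each of the 10 lincRNAs, and those of neighbouring lincRNAs overlap except between Gm10076 and Tmem250-ps and between 2900097C17Rik and 1810058I24Rik.

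By count, 4 lincRNAs stood apart. 2900097C17Rik had a mean count of 1789, Tmem250-ps of 1570, 1810008I18Rik of 1099 and 1700020I14Rik of 1050, and together they held 47.0% of all counts of the 63. The median of the mean counts was 60.6, and 23 lincRNAs were above 100. No lincRNA had a count of 0 in any library.

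The long-described lincRNAs did not pass the test between the diets. 2900097C17Rik (chr2:156388065-156392979, minus strand) had 88.6 to 123 CPM in VDD-F1 (median 98.9) and 103 to 111 CPM in VDS-F1 mice (median 108). Its means of 104 ± 13.7 and 107.5 ± 3.34 CPM (SD, n = 6 each) gave a log2-fold change of -0.04 ± 0.09, and the spread was wider in VDD-F1 mice. 1700020I14Rik, the mouse Cyrano RNA, which holds a site for the microRNA miR-7 and reduces its level, had 60.5 ± 7.59 against 63.1 ± 5.07 CPM. Lncpint, an RNA induced by p53, was the lowest of the 63 per kb (0.302 CPM per kb), with 2.04 ± 0.5495 against 2.42 ± 0.201 CPM. Of these 3 lincRNAs, 0 had an unadjusted p-value under 0.05, and their median log2-fold change was -0.06, beside 0.00 over all 12453 genes tested.

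Among the snoRNA hosts, Snhg6, Snhg12 and Epb41l4aos met the rule. Their introns carry snoRNAs that guide the modification of ribosomal RNA. Snhg6 ranged from 1.36 to 3.47 CPM in VDD-F1 and from 2.12 to 3.96 CPM in VDS-F1 mice. Snhg12 ranged from 1.37 to 2.27 and from 1.73 to 2.71 CPM, and Epb41l4aos from 1.83 to 4.26 and from 2.42 to 3.75 CPM. The groups overlapped for all 3, 0 of them had an unadjusted p-value under 0.05, and their median log2-fold change was -0.06. Of the 17 microRNA hosts listed, 0 met the rule.

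Between the diets, 0 of the 63 lincRNAs were called by edgeR's quasi-likelihood test (adjusted p-value under 0.05 with a log2-fold change over 1 in size), which 0.0402% of all genes tested did. At an unadjusted p-value under 0.05, 4 lincRNAs (6.35%) were higher in VDD-F1 mice, where 9.55% of all genes were, and 5 (7.94%) were lower, where 6.29% of all genes were. DESeq2's Wald test called 3 lincRNAs (4.76%) past both thresholds, Gm35696, Gm19619 and Gm30097, against 2.03% of all genes. Gm19619 and Gm30097 are among the 4 that reached the minimum count through VDD-F1, the group where they are high, so this share says nothing about lincRNAs as a class. Among the 59 that reached it in both groups, DESeq2 called 1 (1.69%) and voom 1 (1.69%), and 2 (3.39%) were higher and 5 (8.47%) lower at an unadjusted p-value under 0.05 in edgeR. Voom called 2 of the 63 (3.17%), Gm35696 and Gm19619, against 2.02% of all genes, and had 14 (22.2%) at an unadjusted p-value under 0.05, against 22.8%. The median log2-fold change of the 63 was -0.06 and that of all genes 0.00, and the median size of the change was 0.18 and 0.15. The log2-fold change was under 0.5 in size for 54 of the lincRNAs and over 1 for 3. The biological coefficient of variation, the spread between mice beyond counting error, had a median of 0.272 in the lincRNAs and of 0.182 in the 11822 protein-coding genes tested. This comparison was not matched for count, and the median of the lincRNAs' mean counts was 60.6. For 0 of the lincRNAs were all VDD-F1 mice above all VDS-F1 mice, against 0.61% of all genes, and for 0 were they all below, against 0.57%.

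**Figure D2:**
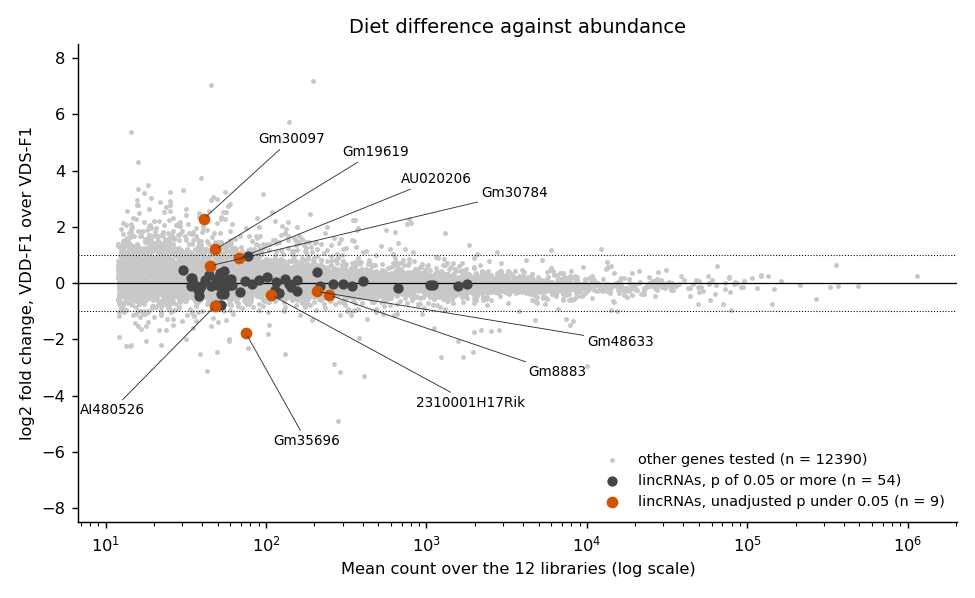
Log2-fold change of VDD-F1 over VDS-F1 mice against the mean count over the 12 libraries (log axis), for the 63 lincRNAs (orange at an unadjusted p-value under 0.05, dark grey otherwise) and all other genes tested (light grey), with dotted lines at 1 and -1. Only Gm30097, Gm19619 and Gm35696 among the lincRNAs lie beyond the dotted lines, and the lincRNAs with mean counts over 1000 lie close to 0.

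Gm35696 had the smallest p-value of the 63. It is a transcript of 973 exonic bases on chr10:121506623-121526101, plus strand, and its nearest protein-coding gene is Tbk1, a kinase of innate immune signalling. Gm35696 had 6.38, 0.313, 1.66, 1.51, 1.21 and 1.26 CPM in VDD1 to VDD6, and 8.24, 6.195, 7.90, 6.61, 6.735 and 6.15 CPM in VDS1 to VDS6. Of the VDD-F1 mice, 5 were far below all VDS-F1 mice, and VDD1 lay among the latter. The means were 2.05 ± 2.17 and 6.97 ± 0.889 CPM. This amounted to -1.78 ± 0.46 on the log2 scale, with an adjusted p of 0.0996 in edgeR and 0.00699 in DESeq2. Without VDD1, edgeR called it, at a log2-fold change of -2.57 (adjusted p = 0.00206), and without any other single mouse it did not. The DESeq2 call was lost without VDD3, VDD4, VDD5 or VDD6.

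Gm48633 and Gm8883 were lower in VDD-F1 mice by smaller amounts, at an unadjusted p-value under 0.05. Gm48633, an RNA of 876 exonic bases at 27587 bases from Apob, the gene of the main protein of very low density lipoprotein, ranged from 7.93 to 12.9 CPM (median 11.5) in VDD-F1 and from 12.4 to 14.7 CPM (median 13.6) in VDS-F1 mice. The ranges overlapped at VDD1 and VDD5, and the log2-fold change of -0.30 ± 0.12 had an adjusted p of 0.244 in edgeR. Gm8883 had 8.07 to 17.7 CPM (median 12.3) in VDD-F1 and 11.7 to 20.8 CPM (median 18.03) in VDS-F1 mice, where -0.43 ± 0.17 on the log2 scale had an adjusted p of 0.251 in edgeR. Its nearest protein-coding gene is Fn1 (fibronectin), 234912 bases away.

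2310001H17Rik and AI480526 complete the 5 lincRNAs that were lower at an unadjusted p-value under 0.05. 2310001H17Rik had 3.77 to 7.46 CPM in VDD-F1 and 5.63 to 8.80 CPM in VDS-F1 mice, a log2-fold change of -0.42 ± 0.18. AI480526 starts in the opposite direction to Setd1b, a histone H3 lysine methyltransferase gene, 527 bases away. It had 4.73, 1.10, 0.8285, 2.27, 2.21 and 1.49 CPM in VDD1 to VDD6 and 2.81 to 4.44 CPM in VDS-F1 mice. As for Gm35696, 5 VDD-F1 mice were below all VDS-F1 mice and VDD1 was not. The difference was -0.82 ± 0.34 (log2, edgeR adjusted p 0.265) with all mice and -1.22 without VDD1 (edgeR adjusted p 0.02865).

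Gm19619 and Gm30097 were the lincRNAs with the smallest p-values among those higher in VDD-F1 mice. Gm19619, of 3201 exonic bases on chr5:91257571-91283421, minus strand, had 2.46, 7.99, 3.09, 2.33, 3.79 and 3.40 CPM in VDD1 to VDD6 and 1.14, 3.54, 1.58, 1.56, 1.04 and 1.22 CPM in VDS1 to VDS6. Each VDD-F1 mouse was above 5 of the VDS-F1 mice, and VDS2 was within the VDD-F1 range. Between the groups this was 1.19 ± 0.37 (log2), at an adjusted p of 0.137 in edgeR and 0.0415 in DESeq2. The DESeq2 call was kept only without VDD1, VDD3, VDD4 or VDS2 and lost without each of the 8 other mice. Its nearest protein-coding gene, 73840 bases away on the same strand, is Btc (betacellulin), a ligand of the epidermal growth factor receptor. In VDD2, which had the highest Gm19619 level, the 6 proliferation markers (Mki67, Top2a and others, of which 5 passed the filter on counts) summed to 74.0 CPM, against 5.28 to 8.11 CPM in VDS-F1 mice. The 8 stellate cell and fibroblast markers summed to 903 CPM in VDD2 and to 282 to 450 CPM in VDS-F1 mice, with 0 markers at 0. All 5 tested proliferation markers and 4 of 8 stellate markers had an unadjusted p-value under 0.05, in each case higher in VDD-F1 mice. The part of these cells in the Gm19619 level was not tested.

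Gm30097 lies on chr3:82926665-83008488, minus strand, and overlaps Fgg, the gene of the gamma chain of fibrinogen, on the other strand. The VDD-F1 mice, in order, had 89, 17, 14, 51, 227 and 12 counts, and the VDS-F1 mice 24, 17, 15, 19, 5 and 2. The counts were high in VDD1, VDD4 and VDD5, while VDD2, VDD3 and VDD6 lay among the VDS-F1 mice. The fitted log2-fold change was 2.29 ± 0.71, at an adjusted p of 0.137 in edgeR and 0.0185 in DESeq2. Without VDD5 it was 1.53 (edgeR adjusted p 0.302), and the DESeq2 call was lost without VDD2, VDD5, VDS1, VDS2, VDS3 or VDS5, 6 of the 12 mice left out in turn. The opposite strand of the same gene model, that of Fgg, had 13837 to 33315 counts per library, so that 0.0142% to 1.003% of the stranded counts were on the annotated strand of Gm30097. VDD5 had 22399 counts on the opposite strand beside its 227, and VDS1, with the most (33315), had 24. Fgg itself had a log2-fold change of 0.01 ± 0.14. With the strand ignored, Gm30097 had a mean count of 0.167, and the part of wrongly stranded fragments in its counts was not tested.

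AU020206 and Gm30784 were also higher at an unadjusted p-value under 0.05. AU020206 had 2.21 to 10.5 CPM in VDD-F1 (median 4.01) and 1.63 to 4.15 CPM in VDS-F1 mice (median 2.89), with the highest value again in VDD2. The log2 difference was 0.87 ± 0.36 (edgeR adjusted p 0.262). Gm30784, at 10159 bases from Slco1a4, a gene of an organic anion transporter, had 2.21 to 5.31 and 1.09 to 2.93 CPM with a difference of 0.61 ± 0.28 on the log2 scale (edgeR adjusted p 0.309).

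**Figure D3:**
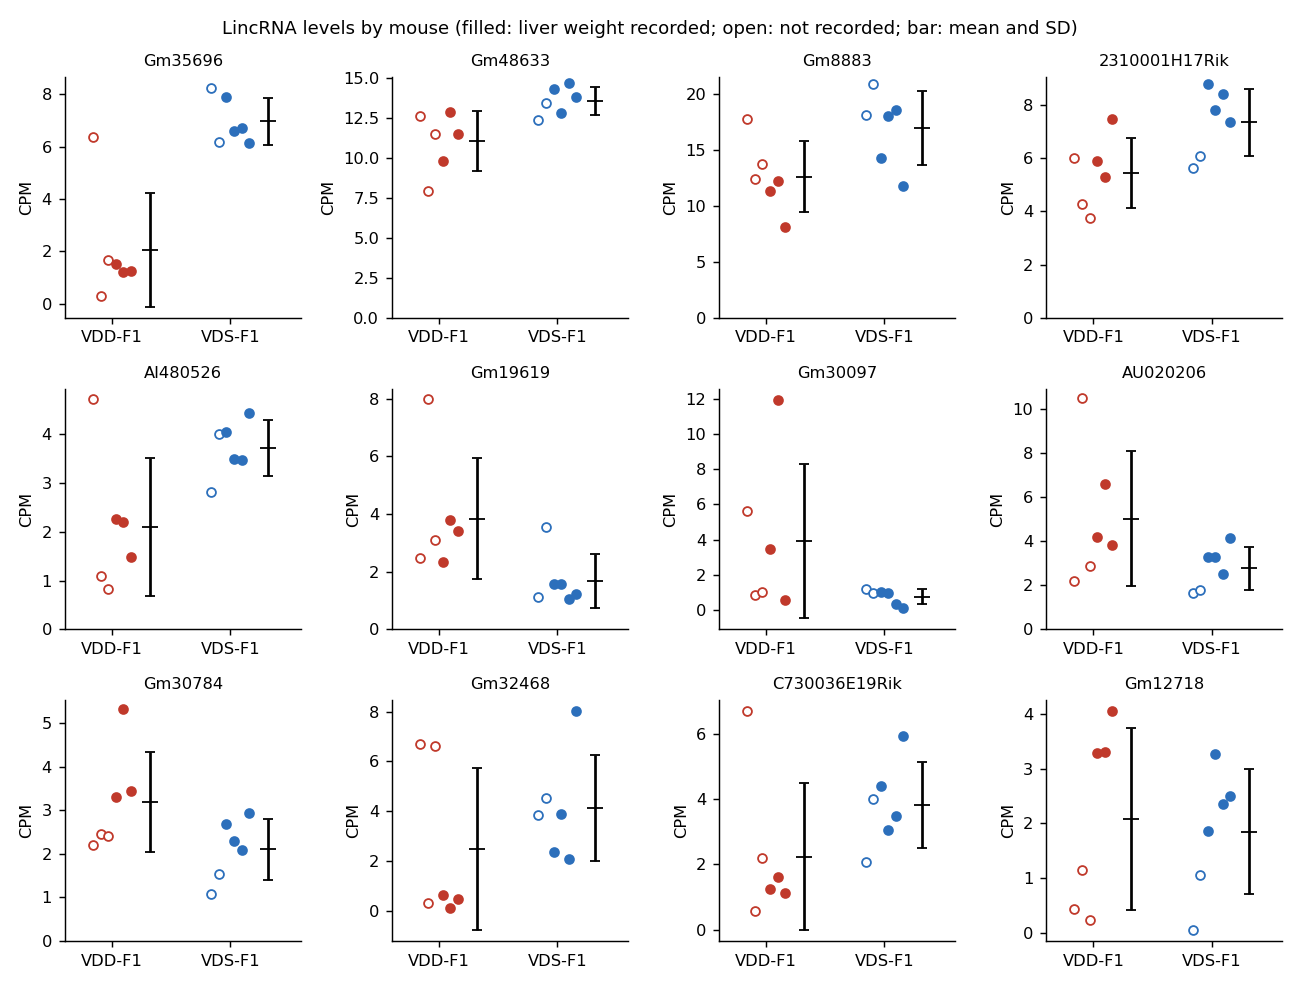
CPM of 12 lincRNAs in each mouse, by diet group, with filled points for mice with a recorded liver weight, open points for mice without one, and the mean with its SD beside each group. In Gm35696 and C730036E19Rik the open point at the top of the VDD-F1 group is VDD1, and in Gm32468 the 2 high VDD-F1 points are VDD1 and VDD3.

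The promoter windows of the 4 lincRNAs with the smallest p-values by diet among those with a window are shown, 2 in each direction, to give the sequence beside their values, although edgeR called none of them. Each is given on the strand of the gene (5′ to 3′), from RefSeq on GRCm38.p6, and capitals mark the only match of the searched motifs.
Gm35696: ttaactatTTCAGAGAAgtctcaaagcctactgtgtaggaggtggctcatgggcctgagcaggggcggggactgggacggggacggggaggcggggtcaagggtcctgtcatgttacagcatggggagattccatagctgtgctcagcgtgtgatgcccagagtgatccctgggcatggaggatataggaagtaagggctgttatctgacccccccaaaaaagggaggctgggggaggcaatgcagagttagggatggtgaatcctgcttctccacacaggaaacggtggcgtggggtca
Gm8883: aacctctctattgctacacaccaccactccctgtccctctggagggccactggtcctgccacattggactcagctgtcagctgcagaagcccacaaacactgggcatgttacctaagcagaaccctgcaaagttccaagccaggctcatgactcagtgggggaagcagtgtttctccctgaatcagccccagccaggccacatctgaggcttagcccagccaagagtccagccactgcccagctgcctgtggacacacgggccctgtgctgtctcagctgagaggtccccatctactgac
Gm19619: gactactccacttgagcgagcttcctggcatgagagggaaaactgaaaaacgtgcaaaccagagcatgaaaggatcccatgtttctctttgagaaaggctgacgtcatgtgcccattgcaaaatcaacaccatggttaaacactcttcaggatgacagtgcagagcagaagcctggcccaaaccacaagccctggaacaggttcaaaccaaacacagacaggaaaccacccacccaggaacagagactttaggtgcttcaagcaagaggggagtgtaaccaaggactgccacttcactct
Gm30097: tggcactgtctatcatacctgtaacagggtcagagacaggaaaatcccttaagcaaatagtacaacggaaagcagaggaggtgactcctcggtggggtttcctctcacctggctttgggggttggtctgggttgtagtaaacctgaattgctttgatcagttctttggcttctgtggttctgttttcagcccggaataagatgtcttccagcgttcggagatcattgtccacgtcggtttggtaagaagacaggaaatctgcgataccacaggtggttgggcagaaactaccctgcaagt
The window of Gm35696 is chr10:121509848-121510147 on the plus strand, and its RefSeq start lies 3475 bases inside the GENCODE gene. The capitals there are a TTCNNNGAA match, 242 bases before the start. The window of Gm8883 (chr1:71887862-71888161, plus strand) is set on the annotated start itself and holds 1 CpG. Those of Gm19619 (chr5:91283027-91283326, minus strand) and Gm30097 (chr3:83008366-83008665, minus strand) have RefSeq starts 345 and 73 bases from the annotated ones and hold 3 and 8 CpGs. With Gm48633, for which no window was matched, Gm35696 and Gm8883 are the 3 lincRNAs with the smallest p-values among those lower in VDD-F1 mice.

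Within the 7 mice with a recorded liver weight (3 VDD-F1 and 4 VDS-F1), 5 lincRNAs (7.94%) passed both thresholds in edgeR, against 4.3% of all genes, and 17 (27.0%) had an unadjusted p-value under 0.05, against 25.5%. The 5 were Gm35696, Gm32468 and C730036E19Rik, which were lower in VDD-F1 mice, and Gm19619 and Gm30097, which were higher and had entered through VDD-F1. Among the 59 with a mean count of at least 30 in both groups, 3 (5.08%) passed. AI480526 and Gm5524 also had an adjusted p-value under 0.05, with a log2-fold change of -0.96 and 0.60. Within the 5 other mice (3 VDD-F1 and 2 VDS-F1), 0 lincRNAs had an unadjusted p-value under 0.05, where 3.79% of all genes did. Of the 63 log2-fold changes, 36 had the same sign in both sets of mice and 27 the opposite sign, with r = 0.37 across the 63 genes, which share their libraries and are not independent.

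For Gm35696 the log2-fold change was -2.37 ± 0.21 in the mice with a liver weight and -1.38 ± 0.94 in the others. That of Gm19619 was 1.23 ± 0.29 and 0.97 ± 0.70, and that of Gm30097 was 3.03 ± 0.82 and 1.20 ± 0.90. Each of these lincRNAs thus had the same sign in both sets, with larger errors in the smaller set.

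Gm32468 and C730036E19Rik differed between VDD-F1 mice. Gm32468, whose start lies 2588 bases from that of Cfap54 in the opposite direction, had 6.69, 0.313, 6.63, 0.618, 0.105 and 0.466 CPM in VDD1 to VDD6 and 3.85, 4.54, 2.34, 3.90, 2.08 and 8.01 CPM in VDS1 to VDS6. VDD2, VDD4, VDD5 and VDD6 were below every VDS-F1 mouse, and VDD1 and VDD3 were above all of them but VDS6. On the log2 scale the diets differed by -3.38 ± 0.61 with a liver weight (edgeR adjusted p 0.00472), by 0.10 ± 0.96 without and by -0.77 ± 0.77 over all mice (edgeR adjusted p 0.664). C730036E19Rik had 6.69, 0.574, 2.18, 1.24, 1.63 and 1.12 CPM in VDD1 to VDD6 and 2.07 to 5.94 CPM in VDS-F1 mice. Here the difference was -1.655 ± 0.30 with a liver weight (edgeR adjusted p 0.00512), 0.05 ± 0.89 without and -0.78 ± 0.48 over all mice (edgeR adjusted p 0.449), which leaving out VDD1 moved to -1.51 (edgeR adjusted p 0.0321). The difference of the diet effect between the sets was tested as an interaction. It had an unadjusted p-value under 0.05 in 5 lincRNAs (7.94%), against 9.01% of all genes. With all mice, 0 lincRNAs had an adjusted p-value under 0.05, where 11 of 12453 genes did. Gm32468 was among the 5, and without VDD2 it alone of the lincRNAs had an adjusted p-value under 0.05 (0.0164). The share of all genes without VDD2 was not computed, so that call is not set against a background.

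**Figure D4:**
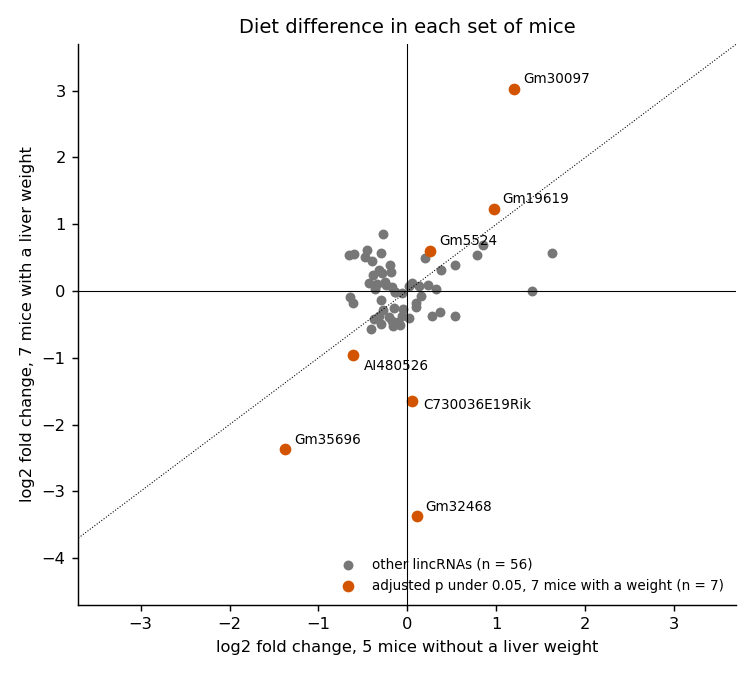
Log2-fold change of VDD-F1 over VDS-F1 mice in the 5 mice without (horizontal) and the 7 mice with a recorded liver weight (vertical) for the 63 lincRNAs, with those of an adjusted p-value under 0.05 in the 7 mice in orange and a dotted line of equality. Gm35696, AI480526, Gm19619, Gm5524 and Gm30097 lie on the same side of 0 in both sets, and Gm32468 and C730036E19Rik lie close to 0 in the mice without a liver weight.

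Between the sets themselves, with diet as a term, 3 lincRNAs (4.76%) had an adjusted p-value under 0.05 in edgeR, against 2.46% of all genes, and 5 (7.94%) did in DESeq2, against 4.67%. Gm12718 (mean counts of 51 with and 10.2 without a weight) and Gm36264 (55.9 and 21.2), called by both, reached the minimum count of 30 through the set in which they are high, so these shares say nothing about lincRNAs as a class. Among the 59 that reached it in both sets, edgeR called 1 (1.69%) and DESeq2 3 (5.08%). All 3 from edgeR were lower where no weight was recorded. Gm12718 had 0.0494 to 1.15 CPM in those 5 mice (median 0.442) and 1.86 to 4.06 CPM in the other 7 (median 3.28), so that the sets did not overlap. Its log2 difference was -2.36 ± 0.48 (edgeR adjusted p 0.0210). Gm36264 had 0.301 to 1.88 CPM (median 1.38) and 1.98 to 4.81 CPM (median 3.26), again without overlap, and a log2 difference of -1.49 ± 0.35 (edgeR adjusted p 0.04205). Gm30784 had 1.09 to 2.45 and 2.08 to 5.31 CPM, a log2 difference of -0.84 ± 0.21 (edgeR adjusted p 0.0488), with overlap. The sets did not overlap in 3 lincRNAs, the other being Tmem250-ps, with 66.3 to 91.4 and 91.8 to 107 CPM. Its log2 difference was -0.27 ± 0.09 (edgeR adjusted p 0.137). The share of all genes without overlap between the sets is not given here. BC049987 and Gm20300 passed in DESeq2 (adjusted p 0.00565 and 0.0457) but not in edgeR, the former being higher without a liver weight (log2 difference 0.97, edgeR adjusted p 0.05445) and the latter lower (-0.44, edgeR adjusted p 0.103). These calls rest on few mice: without VDD4, VDD5 or VDD6, 0 lincRNAs were called, without VDD1, VDS1, VDS3, VDS5 or VDS6, 1 was, and without VDD2, 7 were. The share of all genes called was 1.15% to 1.26% without VDD4, VDD5 or VDD6 and 4.03% without VDD2.

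The mice also differed in their lincRNA profiles. VDD2 had the lowest level of the 12 mice in 20 of the 63 lincRNAs, VDS1 in 10 and VDD3 in 9, whereas VDD1 had it in 0. The highest level fell on VDD4 and VDS5 in 10 lincRNAs each. The summed CPM of the 63 ranged from 588 in VDD2 to 794 in VDD1 within VDD-F1 and from 671 in VDS3 to 795.5 in VDS2 within VDS-F1 mice, with means of 679.5 ± 70.8 and 710 ± 47.4 CPM (SD, n = 6 each). The TMM factor was 1.14 in VDD2 and 0.899 in VDD3, the outermost of the 12. Scaled to the library total alone, the sum in VDD2 was 670 CPM, and VDD3 was then the lowest at 565 CPM.

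In a principal component analysis of the log2 CPM of the 63 lincRNAs, PC1 held 33.6% and PC2 20.2% of the variance. On PC1, VDD2 had a score of -3.38, VDD5 of -1.85, VDD4 of -1.79 and VDD6 of -1.49, while VDD3 had 0.45, VDD1 1.87 and the VDS-F1 mice 0.61 to 1.41. Gm32468 and Gm35696 had the largest weights on PC1 (0.42 each), followed by C730036E19Rik (0.29) and AU020206 (-0.26). On PC2, VDD2 (-2.08) and VDD3 (-2.41) were lowest, and the 5 mice with no recorded weight were below 0 and the 7 others above it. The weight of Gm12718 on PC2 was the largest (0.32), and that of Gm36264 was 0.28. Both met the rule through the 7 mice with a recorded liver weight, where they are high. The split on PC2 is therefore not independent of the rule. VDD2 also had the highest sums of the 12 mice for the cholangiocyte markers (120 CPM against 28.5 to 52.9 CPM in VDS-F1 mice), the dendritic cell markers (148 against 25.0 to 44.0 CPM), the Kupffer cell and macrophage markers (404 against 209 to 381 CPM) and the lymphocyte markers (31.5 against 8.73 to 13.8 CPM). For the endothelial markers it had 385 CPM, within the 289 to 412 CPM of VDS-F1 mice. Single genes lead some of these sums. Among the dendritic cell markers H2-Aa had a mean of 45.3 CPM in VDD-F1 mice, where Flt3, Siglech, Xcr1 and Cd209a had 0.417 to 0.808 CPM. Among the lymphocyte markers Ptprc had the highest mean, 10.3 CPM in VDD-F1 mice. Of the markers tested at an unadjusted p-value under 0.05, 4 of 7 of cholangiocytes and 1 of 3 of dendritic cells were higher in VDD-F1 mice, 2 of 8 of Kupffer cells were lower, 1 was higher and 2 were lower of 8 of endothelial cells, and 0 of 3 of lymphocytes passed. Of the 8 hepatocyte markers, Serpina1c (log2-fold change -0.60 ± 0.14, edgeR adjusted p 0.0855) and Hnf4a (-0.29 ± 0.13, edgeR adjusted p 0.301) were lower at that level. The part of these cells in the lincRNA levels was not tested, and 0 of the listed markers were at 0 in all libraries. Without VDD2, 3 lincRNAs (4.76%) were higher and 3 (4.76%) lower at an unadjusted p-value under 0.05, beside 7.24% and 5.33% of all genes.

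The nearest protein-coding gene overlapped 8 of the lincRNAs, began in the opposite direction within 5 kb of the start of 10, and lay upstream on the same strand of 6. It was elsewhere within 50 kb for 27 and farther for 12. Of the 63 neighbours, 47 passed the filter on counts, and at an unadjusted p-value under 0.05, 3 of these were higher and 5 lower in VDD-F1 mice (6.38% and 10.6%, beside 9.55% and 6.29% of all genes), while 0 had an adjusted p-value under 0.05. The higher ones were Gm33543, Bicc1, an RNA-binding protein gene of epithelia (log2-fold change 1.23 ± 0.40), and Spry2, an inhibitor of receptor tyrosine kinase signalling (0.70 ± 0.26). The lower ones were Setd1b (-0.39 ± 0.13), Rreb1, Erap1, Pcsk6 and Avpr1a, the vasopressin receptor gene (-0.71 ± 0.27). Setd1b is the only one of the 8 whose lincRNA, AI480526, also had an unadjusted p-value under 0.05, and both were lower. Of the 47 pairs, 31 had the same sign, and the log2-fold changes had r = 0.27 across the pairs, which share libraries and are not independent.

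The neighbours of the lincRNAs with the smallest p-values did not pass the test. Tbk1, beside Gm35696, had 19.95 ± 2.63 CPM in VDD-F1 and 22.5 ± 1.59 CPM in VDS-F1 mice (-0.17 ± 0.10 on the log2 scale). Btc had 3.13 ± 1.89 against 1.965 ± 0.954 CPM (0.66 ± 0.41, edgeR adjusted p 0.455). Apob differed by -0.06 ± 0.11 and Fn1 by -0.30 ± 0.20. 9030622O22Rik, 2674 bases from Foxa2, a gene of a pioneer factor of the liver, had 6.17 ± 1.54 against 7.26 ± 1.68 CPM, and its log2-fold change of -0.23 ± 0.20 stood beside one of -0.14 ± 0.26 for Foxa2.

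**Figure D5:**
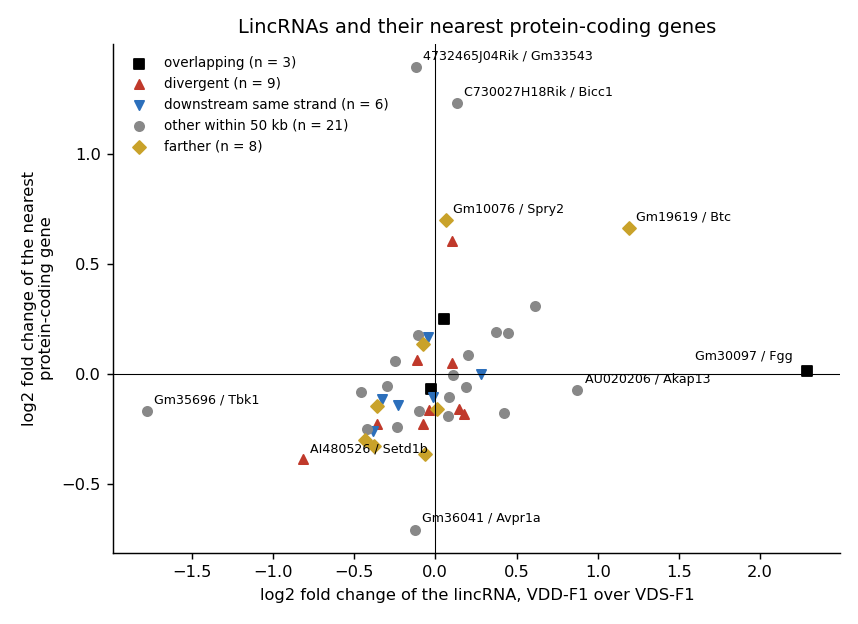
Log2-fold change (VDD-F1 over VDS-F1) of the nearest protein-coding gene against that of the lincRNA for the 47 pairs in which both were tested, by position of the pair. Most pairs lie within 0.5 of 0 on both axes, Gm35696 and Gm30097 have neighbours close to 0, and Gm33543 and Bicc1 lie above lincRNAs close to 0.

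The nuclear exosome and its cofactors degrade many noncoding RNAs. Of 29 symbols listed for this machinery, 25 genes were tested, and 0 were higher and 2 lower (8%) in VDD-F1 mice at an unadjusted p-value under 0.05, beside 9.55% and 6.29% of all genes. Zc3h18, which links the cap-binding complex to the exosome, had 47.2 ± 5.395 against 56.4 ± 6.06 CPM (log2-fold change -0.26), and Ncbp1, a subunit of the cap-binding complex, 23.4 ± 2.43 against 27.1 ± 2.48 CPM (-0.21). The median log2-fold change of the 25 was -0.04.

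Most lincRNAs were read from the annotated strand. The share of stranded counts on it had a median of 99.7% and was over 95% in 53 lincRNAs. It was under 50% in 2, Gm30097 (above) and Gm16548, and it was 50.1% in Gm2814. Gm16548 overlaps Selp on the other strand, and its annotated strand had 3.77% to 10.6% of the stranded counts per library. Its opposite strand had 867 to 1929 counts per library, while Selp itself did not pass the filter on counts. The gene from which those counts came was not tested. With Gm30097 and Gm16548 left out, 97.9% to 99.1% of the counts of the other 61 were on the annotated strand in each library, VDS6 included.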

How the data were processed

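RNA-seq was performed on the livers of 12 mice. The authors trimmed the reads and aligned them with STAR to mm10 (GRCm38) with GENCODE M15, and the deposited values are raw counts of fragments per gene (without strand, forward strand and reverse strand). The reverse-strand count was used, as the kit keeps the strand. Genes were annotated with GENCODE M21, where 52489 of 52636 IDs matched. The lincRNAs, gene lists and tests were chosen with earlier results of these data known.

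The 12453 genes whose mean count reached 12 were fitted with edgeR 4.0.16 in R 4.3.3 (TMM, quasi-likelihood test, legacy form), with Benjamini-Hochberg adjustment over all genes. The alternatives were DESeq2 1.42.0, voom in limma 3.58.1, other scalings, filters and forms of the test, the count without strand, the set of mice, a replicate block and each mouse left out. DESeq2 with each mouse left out was added after the data had been seen. The diet fits of edgeR, DESeq2 and voom were also run on simulated counts, and the outcome is not given here. Nothing ties the mice to litters, so p-values measure the spread between these mice. CPM are TMM-scaled, and CPM per kb are divided by merged exon length. Near the minimum of 30 counts, counting error alone makes a fold change imprecise. Counts cover fragments that map to 1 place, so that copies of a sequence elsewhere lower them. Figures and sequence searches used Python 3.11.15, NumPy 2.4.6, pandas 2.3.3 and matplotlib 3.10.9.

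The lincRNAs named are the 10 with the highest CPM per kb, the 10 smallest p-values in each direction of diet, the 5 smallest for the set of mice, up to 3 per list and the highest, and those called in any fit, 38 in all. Others are named for their position, strand or sequence, after their values were seen. Replicate numbers in the sample names mark different mice. Deviations of same-numbered mice correlated between -0.0762 and 0.103, so the numbers did not pair them.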

Additional observations from a re-analysis of the deposited data

Results flagged for a closer look

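In each diet group of 6, the highest and lowest mouse were compared with the rest by Dixon's test for the 38 named lincRNAs. Of 76 groups, 9 had a mouse far from the others, and chance flags about 1 in 20. In VDD-F1, VDD1 was far above the others for Gm35696 (6.38 CPM), AI480526 (4.73 CPM) and C730036E19Rik (6.69 CPM), and VDD2 for Gm19619 (7.99 CPM) and Gm42047 (17 CPM). In VDS-F1, VDS2 was far above the others for Gm19619 (3.54 CPM), BC049987 (20 CPM) and 1810008I18Rik (131 CPM), and VDS1 for Gm10076 (34.1 CPM).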

How the results depend on the processing

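Compared with 0 lincRNAs called between the diets, DESeq2 called 3 (4.76%, against 2.03% of all genes), voom 2 (3.17%, against 2.02%) and the mice with a liver weight alone 5 (7.94%, against 4.3%). Gm19619 and Gm30097 entered through VDD-F1, where they are high, and over the 59 lincRNAs with a mean count of at least 30 in both groups the shares were 1.69%, 1.69% and 5.08%. At an unadjusted p-value under 0.05, where 4 were higher and 5 lower, voom had 9 lower, the mice with a liver weight 8 higher and 9 lower, and the other mice 0 and 0. In both directions together these are 22.2% with voom and 27.0% with a liver weight, against 22.8% and 25.5% of all genes. Leaving out each mouse in turn gave 0 to 3 called (3 without VDD1: Gm35696, AI480526 and C730036E19Rik, where 2.09% of all genes were called, against 0.0402% with all mice), 2 to 6 higher (7.24% to 11% of all genes) and 3 to 8 lower (4.7% to 7.87%). The lowest counts higher, 2, came without VDS1 or VDS2, and the lowest counts lower, 3, without VDD2, VDD3, VDD4, VDS3 or VDS5. DESeq2 then called 0 to 6, with 6 without VDD1, 1 without VDD2, VDD6, VDS1, VDS3 or VDS5 and 0 without VDD5 (0.922% to 3.36% of all genes). Between the sets of mice, 3 lincRNAs became 5 with DESeq2 (4.67% of all genes, against 2.46% in edgeR) and 0 to 7 when a mouse was left out (1.15% to 4.03% of all genes). Of the 3, Gm12718 and Gm36264 entered through the set in which they are high. The interaction had 0 lincRNAs with all mice (11 of 12453 genes). It had 0 to 1 when a mouse was left out, where the share of all genes was not computed. The cause was not tested. With a replicate block 0 lincRNAs were called, 4 were higher and 5 lower, and the block changed no call named here. The share of all genes with the block is not given here, so these counts are not set against a background. Same-numbered mice did not deviate together, and 0 of the 12 mice correlated best with its own number.

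For single lincRNAs, the diet difference was computed 645 times for 27 lincRNAs, with 28 changes of sign and 13 in which it newly passed the threshold. Of the 70 values for the set, 23 no longer passed it and 4 newly did. In the mice without a liver weight the log2-fold change turned to 0.052 for C730036E19Rik, -0.28 for 5033406O09Rik, 0.10 for Gm32468, -0.20 for Fam120aos, -0.28 for BC049987 and -0.48 for Gm36264. In the mice with one it turned to 0.24 for Gm20300 and 0.12 for 1810008I18Rik. Voom gave 0.11 for Gm20300 and 0.081 for 1810008I18Rik, and the block gave 0.00053 for 1810008I18Rik and -0.11 for Gm36264. With 1 mouse left out, the ranges that cross 0 were -0.31 to 0.041 for Gm36041, -0.089 to 0.51 for BC049987, -0.12 to 0.44 for Gm12718, -0.12 to 0.047 for Gm20300, -0.25 to 0.25 for 1810008I18Rik and -0.16 to 0.33 for Gm36264. In the 40 lincRNAs with a mean count under 100, counting error adds to the spread between mice, and its part was not tested.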

Other observations

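Gm42047, in the annotation with an overlapping gene model named Gm20388, had 7.45, 17.02, 1.96, 3.64, 1.79 and 3.22 CPM in VDD1 to VDD6 and 2.003 to 4.17 CPM in VDS-F1 mice. Its log2-fold change was 0.95 over all mice (SE 0.49, edgeR adjusted p 0.367), 0.00076 in the mice with a recorded liver weight and 1.41 in the others. Without VDD2 it was 0.25 (edgeR adjusted p 0.818). Gm5524 had 8.74 to 17.98 CPM in VDD-F1 and 6.02 to 12.3 CPM in VDS-F1 mice. BC049987, beside Treh, which encodes the enzyme that splits trehalose, had 7.78 to 20 CPM in the mice without and 3.82 to 8.73 CPM in the mice with a recorded liver weight.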
